A study of Mus musculus with 4 samples.

Results

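*Tnfsf11*, *Tnfrsf11b*, *Spp1* and *Bmp2* are the genes of a mouse inflammation PCR array whose products are best known from bone. They encode RANKL, osteoprotegerin, osteopontin and bone morphogenetic protein 2. The wells were taken by gene symbol and make up 4 of the 84 target genes on the array. They were picked by symbol as a group with their E-sel/AAV2/2 against LacZ/AAV2/2 differences on these arrays already known, so their differences between treatments are given as a description, without a p-value for any of them.

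FVB mice, by the study's methods FVB/NJ young adults of both sexes, received intramuscular injections of either E-sel/AAV2/2, an adeno-associated virus carrying the mouse E-selectin gene, or LacZ/AAV2/2, the same vector with a bacterial reporter gene, as control. Both groups then underwent interruption of the femoral artery and, by the study's methods, the femoral vein, and received intraperitoneal L-NAME, a nitric oxide synthase inhibitor, at 40 mg/kg. Ischemic adductor and gastrocnemius muscle was taken at 21 days, and by the series text RNA of 3 mice per group was pooled before the assay. The study's methods instead give 3 or more mice per group, run in duplicate, and do not mention pooling. There were 2 arrays per group, called E-sel arrays 1 and 2 and LacZ arrays 1 and 2 here by their replicate number. The series text describes the arrays of a group as repeat runs. Every SD, SE, limma p-value and limma call below thus rests on the spread between arrays and not between animals. A call is therefore not a test of the treatment across animals. The promoter that drives the transgene and the sex of the pooled mice were not given in the sources used here. The panel holds neither the E-selectin gene nor a defining marker of skeletal muscle, bone or osteoclasts, so neither transgene level nor the makeup of the tissue could be checked on it.

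RANKL is a ligand of the tumor necrosis factor superfamily that binds RANK on cells of the monocyte lineage and drives them to become osteoclasts. It is made by osteoblast lineage and stromal cells and by activated T cells, and it also acts in the development of lymph nodes. Osteoprotegerin is a soluble decoy receptor that captures RANKL before it reaches RANK, so the balance of the pair is commonly read as a ratio. Osteopontin is a secreted matrix glycoprotein that binds integrins and is abundant in macrophages of injured muscle. BMP2 is a growth factor of the transforming growth factor β superfamily that induces bone and cartilage and is also made by endothelial cells.

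Each well yielded a threshold cycle (Ct), the number of PCR cycles needed to reach a fixed fluorescence. Abundant transcripts have a low Ct, and a step of 1 cycle is a doubling at full PCR efficiency. ΔCt is the Ct of a gene after subtraction of the average Ct of 5 reference genes (*Hsp90ab1*, *Gusb*, *Gapdh*, *B2m* and *Actb*) of that array. Log2 differences are E-sel/AAV2/2 minus LacZ/AAV2/2, so that a positive value means more transcript with E-sel/AAV2/2. All 4 genes gave a Ct on all 4 arrays and were among the 77 target genes fitted together in limma. Targets without any Ct numbered 1 to 6 per array, and the median Ct of the 77 genes was 32.3, 32.6, 34.1 and 31.9 on E-sel arrays 1 and 2 and LacZ arrays 1 and 2. LacZ array 1 thus read late for most of the panel.

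*Tnfsf11* read higher in the E-sel/AAV2/2 pool and *Bmp2* lower, neither past the adjusted threshold, and *Tnfrsf11b* and *Spp1* differed by less than the spread between arrays. The log2 difference was 2.83 (SE 1.10) for *Tnfsf11*, -0.19 (SE 0.97) for *Tnfrsf11b*, -0.40 (SE 0.96) for *Spp1* and -2.57 (SE 1.04) for *Bmp2*. Each SE is the moderated one of limma, which draws the spread of a gene toward that of the whole panel. It is therefore not the spread of that gene's own arrays, and its median over the panel was 1.00. Of these 4 genes, limma called 0 (Benjamini-Hochberg adjusted p-value under 0.05), beside 5.19% of the panel called, all of it higher, and 0.0% called lower. At an unadjusted p-value under 0.05 it was 2 of 4, beside 13.0% of the panel. The arrays of the 2 groups did not overlap for 2 of the 4 genes, beside 48.1% of the panel. *Tnfsf11* was the 1 gene above without overlap, as were 22.1% of the panel, and *Bmp2* the 1 gene below, as were 26.0%. Neither count is read as a result about the group, because the genes were not chosen blind to these values.

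**Figure D1:**
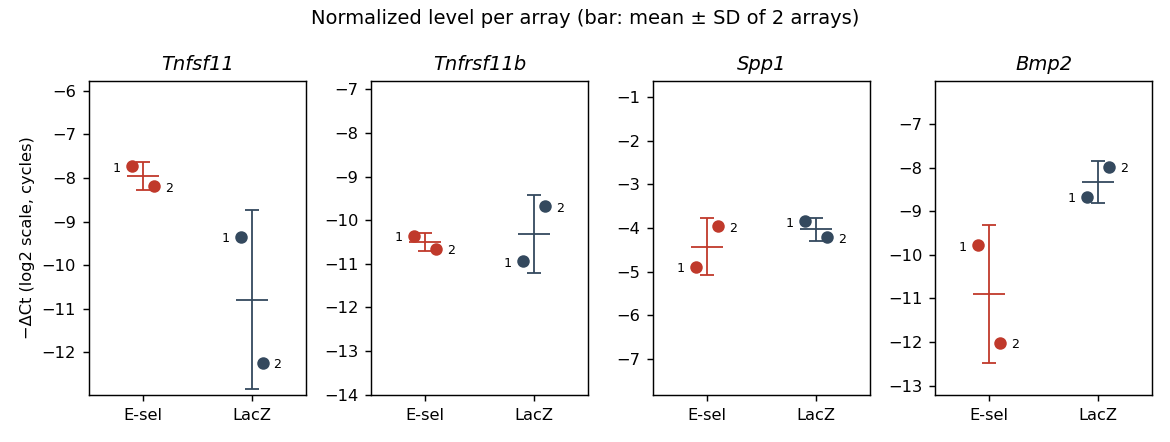
Normalized level (−ΔCt, log2 scale in cycles, higher means more transcript) of each gene on the 2 E-sel and 2 LacZ arrays. Points are arrays numbered by replicate, bars are the mean ± SD of 2 arrays, and all panels span the same number of cycles. *Tnfsf11* and *Bmp2* separate the groups in opposite directions, each with 1 widely spread group, whereas the points of *Tnfrsf11b* and *Spp1* overlap.

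The ligand had the most positive difference of the 4 genes. *Tnfsf11* read Ct 32.07 and 32.03 on E-sel arrays 1 and 2 and Ct 34.59 and 36.26 on LacZ arrays 1 and 2. Both E-sel arrays crossed the threshold earlier than both LacZ arrays, and the pair of E-sel arrays almost coincided. After normalization its ΔCt was 7.96 ± 0.322 (SD, n = 2) on the E-sel arrays and 10.8 ± 2.05 (SD, n = 2) on the LacZ arrays, a difference of 7.10-fold. Taken array against array, the log2 difference ran from 1.15 to 4.50. *Tnfsf11* ranked 7 of 77 from the highest difference downward.

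The size of the *Tnfsf11* difference was set by the LacZ arrays, which lay 2.89 cycles apart after normalization, a gap that only 2 of the 77 genes exceeded. Without LacZ array 1 the log2 difference was 4.27, and without LacZ array 2 it was 1.38. The Ct of 36.26 on LacZ array 2 falls in the late cycles, where template molecules are few and readings vary more.

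The RefSeq promoter table (GRCm38.p6) held a window for *Tnfsf11* and *Spp1*, 2 of the 4 genes. Their 250 bases before the annotated start are printed to show the sequence upstream of the gene with the most positive difference of the group and of the gene with the earliest Ct of the group. No reading in these arrays bears on promoter use. The *Tnfsf11* window is chr14:78308044-78308293, minus strand, and the *Spp1* window, the more upstream of 2 in the table, is chr5:104434861-104435110, plus strand. Capitals mark matches to 3 short motifs, each searched on both strands, and no match overlapped another. The letters searched for the TATA box, where the general transcription machinery binds, were TATAAA. The CCAAT box, bound by the factor NF-Y, was searched by the letters of its name. For the site of the Runx factors, which are known from bone and T cells, the letters were TGTGGT.
Tnfsf11: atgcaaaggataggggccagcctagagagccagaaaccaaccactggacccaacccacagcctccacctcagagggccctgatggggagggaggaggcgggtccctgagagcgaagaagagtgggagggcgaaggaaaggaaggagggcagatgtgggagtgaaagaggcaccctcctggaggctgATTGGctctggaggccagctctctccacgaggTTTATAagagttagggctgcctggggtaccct
Spp1: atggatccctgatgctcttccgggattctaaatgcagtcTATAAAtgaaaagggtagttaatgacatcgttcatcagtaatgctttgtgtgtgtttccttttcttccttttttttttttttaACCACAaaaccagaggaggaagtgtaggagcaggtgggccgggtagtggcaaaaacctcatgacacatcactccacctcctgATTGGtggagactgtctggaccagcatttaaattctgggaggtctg

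Counting back from the start, the TATA match began at position -32 in *Tnfsf11* and -211 in *Spp1*, and 12.4% of all 32851 windows of this length held the motif. The CCAAT match began at -64 in *Tnfsf11* and -46 in *Spp1*, and 33.8% of windows held the motif. The Runx match was found in *Spp1*, beginning at -128, and 14.0% of windows held the motif.

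The decoy receptor showed no separation of the groups. *Tnfrsf11b* read Ct 34.69 and 34.49 on E-sel arrays 1 and 2 and Ct 36.19 and 33.71 on LacZ arrays 1 and 2. The LacZ arrays lay on either side of the E-sel arrays. Its ΔCt was 10.5 ± 0.209 (SD, n = 2) on the E-sel arrays and 10.3 ± 0.888 (SD, n = 2) on the LacZ arrays, and array against array the log2 difference ran from -0.96 to 0.59. It was 0.59 for replicate 1 against replicate 1 and -0.96 for replicate 2 against replicate 2. Its SE of 0.97 on the log2 scale is about the size of a 2-fold change, which was not detectable with these arrays.

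The ratio of *Tnfsf11* to *Tnfrsf11b* needs no reference gene, since both were read on the same array. On the log2 scale it was 2.62 and 2.46 on E-sel arrays 1 and 2 and 1.60 and -2.55 on LacZ arrays 1 and 2. As a linear ratio this is 6.15, 5.50, 3.03 and 0.171 in the same order. Both E-sel arrays had the higher ratio, and LacZ array 2 was the only array of the 4 on which *Tnfrsf11b* crossed the threshold before *Tnfsf11*. The absolute ratio depends on the efficiency of each assay, which was not given in the sources used here, whereas its shift between arrays does not depend on a constant offset between the assays.

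The mean log2 ratio was 2.54 ± 0.113 (SD, n = 2) on the E-sel arrays and -0.48 ± 2.93 (SD, n = 2) on the LacZ arrays. The difference of 3.02, or 8.08-fold, was close to 1 SD of the LacZ arrays. It was 5.09 without LacZ array 1 and 0.94 without LacZ array 2. Its direction thus held for each pair of arrays, by 0.86 to 5.17, but its size rested on which LacZ/AAV2/2 array was used. No permutation test was run, because the smallest exact two-sided p-value for groups of 2 and 2 is 0.333.

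Ratios among all 4 genes were taken in the same way. The arrays of the groups did not overlap for 5 of the 6 ratios, beside 54.2% of the 2926 ratios between any 2 of the 77 genes. Each of the 5 holds *Tnfsf11* or *Bmp2*, so they restate the differences of these genes, which were known beforehand, and are not separate evidence. The widest shift was in *Tnfsf11* to *Bmp2*. Its log2 ratio was 2.05 and 3.83 on E-sel arrays 1 and 2 and -0.67 and -4.25 on LacZ arrays 1 and 2, so the order of the 2 wells was turned between the groups. The mean shift was 5.40, with a range over pairs of arrays from 2.72 to 8.08. The ratio that overlapped was *Tnfrsf11b* to *Spp1*, which shifted by 0.21.

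**Figure D2:**
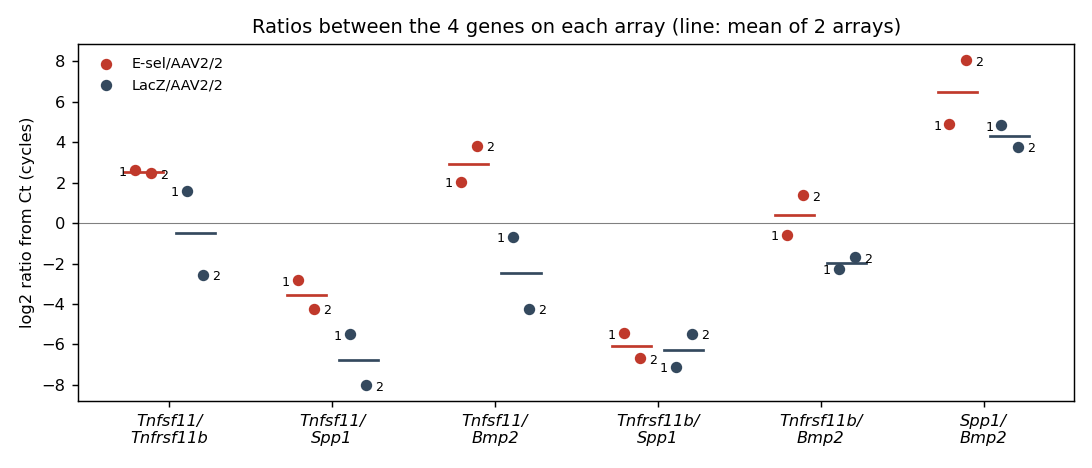
Log2 ratio (vertical axis, in cycles) of each of the 6 pairings of the 4 genes on every array, from the Ct values alone. Points are arrays numbered by replicate and lines are means of 2 arrays. The *Tnfsf11* to *Tnfrsf11b* ratio sits at 2.62 and 2.46 on the E-sel arrays and at 1.60 and -2.55 on the LacZ arrays.

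Osteopontin gave the earliest Ct of the 4 assays on every array. *Spp1* read Ct 29.23 and 27.80 on E-sel arrays 1 and 2 and Ct 29.09 and 28.24 on LacZ arrays 1 and 2. Both LacZ/AAV2/2 Ct values lay between the E-sel/AAV2/2 Ct values. After normalization the groups still overlapped, with LacZ array 1 just outside the range of the E-sel arrays. Its ΔCt was 4.43 ± 0.660 (SD, n = 2) on the E-sel arrays and 4.03 ± 0.264 (SD, n = 2) on the LacZ arrays. The log2 difference ran from -1.05 to 0.26 over pairs of arrays, being -1.05 for replicate 1 and 0.26 for replicate 2.

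The growth factor *Bmp2* read lower with E-sel/AAV2/2 and ranked 77 of 77, the most negative difference of the panel, without being called. It read Ct 34.12 and 35.86 on E-sel arrays 1 and 2 and Ct 33.92 and 32.01 on LacZ arrays 1 and 2. Both E-sel arrays were later than both LacZ arrays, although replicate 1 of each group differed by under 1 cycle before normalization. Its ΔCt was 10.9 ± 1.58 (SD, n = 2) on the E-sel arrays and 8.33 ± 0.485 (SD, n = 2) on the LacZ arrays, which is 5.95-fold less transcript. Here the E-sel arrays were the uneven ones, 2.24 cycles apart, a gap that 6 of the 77 genes exceeded.

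The log2 difference of *Bmp2* was -3.69 without E-sel array 1 and -1.46 without E-sel array 2. Over pairs of arrays it ran from -4.03 to -1.11. With Ct values above 35 set to 35, which touches *Bmp2* on that array alone, the log2 difference was -2.14.

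The choice of reference gene moved all 4 genes by the same amount. Relative to the mean of the 5, the log2 difference of the reference genes themselves was 1.44 for *B2m*, 0.53 for *Actb*, -0.23 for *Hsp90ab1*, -0.63 for *Gusb* and -1.11 for *Gapdh*. The median of all 77 genes was -0.19 with the 5 references, 0.92 with *Gapdh* alone and -1.64 with *B2m* alone. Set against that panel median, which shifts with them, *Tnfsf11* stood 3.02 above, *Tnfrsf11b* 0.005 above, *Spp1* at -0.21 and *Bmp2* at -2.38.

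*Tnfsf11* stayed above zero with each reference gene used alone, from 1.39 with *B2m* to 3.94 with *Gapdh*, and *Bmp2* stayed below zero, from -4.02 with *B2m* to -1.46 with *Gapdh*. The arrays of *Tnfsf11* overlapped between groups with *B2m* alone and with none of the other 4 references, and those of *Bmp2* overlapped with none of the 5. *Tnfrsf11b* ran from -1.63 with *B2m* to 0.92 with *Gapdh*, and *Spp1* from -1.84 to 0.71, so neither gene has a direction that holds across references.

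**Figure D3:**
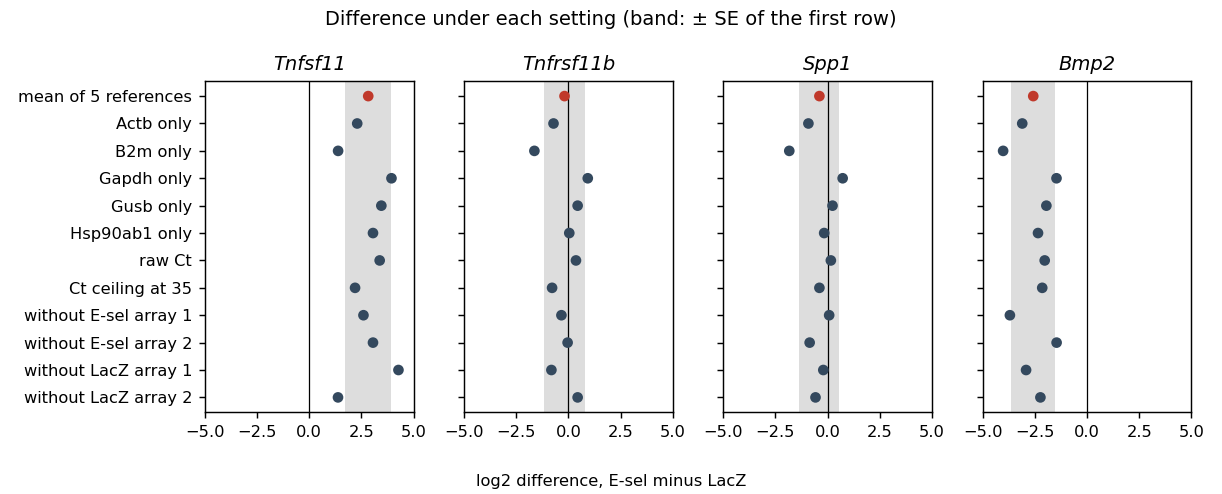
Log2 difference, E-sel/AAV2/2 minus LacZ/AAV2/2 (horizontal axis), of each gene with the mean of the 5 reference genes (red), with each reference gene alone, with raw Ct, with late Ct values set to 35 and without each array. The grey band is ± SE of the first row. *Tnfsf11* stays to the right of zero and *Bmp2* to the left in every row, whereas *Tnfrsf11b* and *Spp1* fall on both sides. For *Tnfsf11* and *Bmp2*, whose arrays do not overlap between groups, leaving out an array could not change the side.

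A view without any reference gene came from setting each gene against each of the 76 other targets as a ratio. *Tnfsf11* was higher with E-sel/AAV2/2, with no overlap of arrays, against 43 of the 76 genes and lower against 0, and 11 of the 77 genes were higher against more partners. *Bmp2* was lower without overlap against 59 of 76 and higher against 0, and only 1 gene was lower against more. *Tnfrsf11b* was higher against 18 and lower against 23, and *Spp1* was higher against 4 and lower against 20. For a typical gene of the panel, the median was 17 higher and 18 lower. These counts restate the same Ct values as the differences above, so they are not separate evidence.

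**Figure D4:**
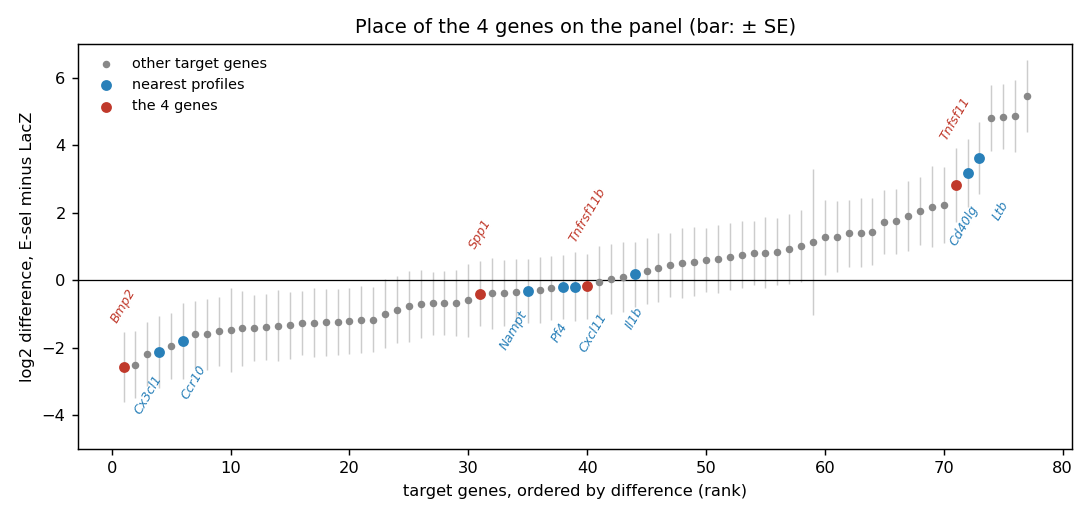
Log2 difference ± SE (vertical axis) of the 77 target genes, ordered from the lowest to the highest. The 4 genes are in red and the genes with the nearest profiles in blue. *Bmp2* lies at the bottom at -2.57, *Tnfsf11* is 7 from the top at 2.83, and *Spp1* and *Tnfrsf11b* lie near the middle.

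The genes with the most similar profiles were found by the root mean square (RMS) difference of ΔCt over the 4 arrays, after each gene was centred on its own mean. For *Tnfsf11* they were *Cd40lg*, the CD40 ligand of activated T cells, at 0.426 cycles and *Ltb*, lymphotoxin β, at 0.587 cycles, both also ligands of the tumor necrosis factor superfamily. *Cd40lg* read Ct 35.41 and 35.21 on E-sel arrays 1 and 2 and Ct 38.74 and 39.32 on LacZ arrays 1 and 2. *Ltb* read Ct 27.89, 28.83, 32.06 and 33.00 in the same order. Both thus separated the groups as *Tnfsf11* did. The other tested ligands of that superfamily had smaller log2 differences, from -0.69 for *Tnfsf13* to 1.29 for *Tnfsf4*.

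For *Bmp2* the nearest were *Cx3cl1*, the membrane-anchored chemokine fractalkine, at 0.252 cycles and *Ccr10*, a chemokine receptor, at 0.535 cycles. Their log2 differences were -2.12 and -1.79. For *Spp1* they were *Pf4*, platelet factor 4, at 0.417 and *Nampt*, an enzyme of NAD synthesis, at 0.424, and for *Tnfrsf11b* the interferon-induced chemokine *Cxcl11* at 0.270 and *Il1b* at 0.308. Among the 4 genes themselves, *Tnfsf11* and *Bmp2* were the farthest apart at 3.05 cycles, and *Tnfrsf11b* and *Spp1* the nearest at 0.730. Likeness over 4 arrays is a description only.

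Since *Tnfsf11* is also made by T cells, markers of cell types that injured muscle can hold were set beside it. All 8 lymphocyte genes of the list (*Cd40lg*, *Fasl*, *Lta*, *Ltb*, *Il2rb*, *Il2rg*, *Cxcr5* and *Ccr6*) gave a Ct on every array, and 8 of 8 had a log2 difference above zero, or 5 of 8 with *B2m* alone. The median was 2.70, against -0.19 for the panel, and it was 1.26 with *B2m* alone and 1.15, with 6 of 8 above zero, when Ct values above 35 were set to 35. *Cxcr5* and *Ccr6* were called higher in limma, but 0 of the 8 were called without E-sel array 1, without E-sel array 2 or with *B2m* alone. The summed level of the list, as log2 of the sum of 2 to the power of −ΔCt, was -1.99 and -2.88 on the E-sel arrays and -4.94 and -5.20 on the LacZ arrays, so the groups did not overlap. Such a sum rests mainly on the genes of lowest ΔCt, here *Il2rg*, *Ltb* and *Ccr6*. In bulk muscle RNA, more cells of a type and more RNA per cell cannot be told apart. By the study's own staining of ischemic calf muscle at 21 days, CD3-positive T cells were sparse in both groups, and their number did not differ significantly. That staining covered T cells and no other lymphocytes, and not the adductor muscle that is also in the array RNA. It is therefore not a measure of the cells behind this list. The part of lymphocyte RNA in the *Tnfsf11* difference was not tested.

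The monocyte and macrophage genes (*Ccr1*, *Ccr2*, *Ccl6*, *Ccl9*, *Il1b* and *Tnf*), beside *Spp1* and *Bmp2*, had a median of -1.07, which was 0.05 with *Gapdh* alone, with 2 of 6 above zero and 0 called. Their summed level was -1.80 and -0.98 on the E-sel arrays and -1.34 and 1.39 on the LacZ arrays, which overlapped, with LacZ array 2 standing highest. That sum was set almost wholly by *Ccl6*, so it does not stand for the list. The ΔCt of *Ccl6* was 1.97 and 1.06 on the E-sel arrays and 1.49 and -1.32 on the LacZ arrays, by far the lowest of the list. The neutrophil genes *Cxcr2* and *Il1b* had a median of 1.03, or -0.41 with *B2m* alone, and *Pf4*, the platelet gene, differed by -0.20, or 0.91 with *Gapdh* alone. The study's own staining of calf muscle at 21 days found similar numbers of Mac-2-positive macrophages in both groups. The part of these cell types in the differences of *Spp1* and *Bmp2* was not tested.

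The other genes of the panel that act on the RANKL pathway were then counted. *Tnfsf10*, which encodes TRAIL, the other ligand captured by osteoprotegerin, read Ct 31.46 and 31.53 on E-sel arrays 1 and 2 and Ct 31.71 and 31.61 on the LacZ arrays. These raw values lay within 0.25 cycles of each other, and the log2 difference was -0.38 (SE 0.97), or 0.73 with *Gapdh* alone and 0.18 without LacZ array 1. *Csf1*, the colony-stimulating factor that osteoclast precursors need beside RANKL, read Ct 31.07, 31.55, 30.88 and 28.92 in the same order. Both E-sel arrays were later, and the log2 difference was -1.96 (SE 0.97), or -0.85 with *Gapdh* alone, and it was not called.

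Of the 7 cytokines that promote osteoclast formation (*Csf1*, *Tnf*, *Il1a*, *Il1b*, *Il11*, *Il17a* and *Osm*), 5 had a Ct on all arrays, 4 of these were above zero and 0 were called in either direction. The median was 0.93, or -0.52 with *B2m* alone, -0.37 with Ct values above 35 set to 35 and -0.09 without E-sel array 1. *Il1a*, the alarm cytokine interleukin 1α, had the largest positive value at 1.74 (SE 0.95), its arrays not overlapping, and *Csf1* the largest negative. The left-out *Il11* and *Il17a* each lacked a Ct on 1 array and otherwise read from 37.40 to 39.65.

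Of the 6 cytokines that restrain it (*Ifng*, *Il4*, *Il13*, *Il3*, *Csf2* and *Il1rn*), 5 were tested, 4 were above zero and 0 were called. The median was 0.63, or -0.82 with *B2m* alone and -0.55 with Ct values above 35 set to 35. *Il1rn*, the interleukin 1 receptor antagonist, was the negative member at -1.17 (SE 0.96), or -0.05 with *Gapdh* alone. The largest positive value, 1.13 (SE 2.17) for *Csf2*, came from a Ct of 29.29 on E-sel array 1 against 38.90 on E-sel array 2 of the same pool, with 35.94 and 35.60 on the LacZ arrays. *Il3* gave no Ct on replicate 1 of either group.

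The 3 chemokines made by or attracting the macrophage and osteoclast lineage, *Ccl2*, *Ccl3* and *Ccl9*, were all below zero with a median of -1.25, and 0 were called. With *Gapdh* alone the median was -0.14 and 1 of the 3 was above zero. *Ccl3* was the lowest at -2.51 (SE 1.00), next to *Bmp2* at the foot of the panel. *Ccl2* was the least negative at -0.70 (SE 1.01).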

How the data were processed

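The members and gene lists were chosen with earlier results of these data known. The authors deposited Ct values per well for 4 arrays (SYBR Green RT-qPCR, CFX96), with missing wells marked, and a table of their own fold changes by replicate number, from which only the gene symbols were used. Threshold settings were not given in the sources used here. RNA extraction is by RNeasy kit per the labels and by TRIzol in the methods, and the label names an angiogenesis panel while the catalog number and symbols are those of the inflammation panel. All 89 symbols matched GRCm38.p6 gene names.

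ΔCt was taken to the mean of 5 reference genes, as in the study's methods, and -ΔCt was fitted with limma 3.58.1 in R 4.3.3 (two-sided, no covariate, Benjamini-Hochberg over 77 of 84 targets with a Ct on all arrays, the other 7 left out). The script was tested on simulated panels. Named genes were the 4 genes, the references, the 2 nearest profiles per gene and genes from fixed lists. Normalization to a mean of references passes their changes on to every gene, and late Ct values are imprecise. Figures used matplotlib 3.10.9 in Python 3.11.15.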

Additional observations from a re-analysis of the deposited data

How the results depend on the processing

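*Tnfsf11*, *Bmp2* and the *Tnfsf11* to *Tnfrsf11b* ratio kept their direction under all alternatives that gave a value (20, 20 and 7). For some of these settings the direction could not change. The arrays of the groups did not overlap for any of them, so leaving out an array or taking means on the linear scale keeps the sign. The replicate block leaves each difference as it was. *Tnfrsf11b* changed sign under 6 of 20 and *Spp1* under 4 of 21. Values that moved by over 1 SD between arrays were -1.63 (*Tnfrsf11b*), -1.84 (*Spp1*) and -4.02 (*Bmp2*) with *B2m* alone, 0.92 (*Tnfrsf11b*) and 0.71 (*Spp1*) with *Gapdh* alone, and for *Spp1* -0.93 with *Actb* alone, 0.23 with *Gusb* alone and 0.15 with raw Ct. The SD here is pooled over both groups, and leaving out an array can shift a difference by no more than it. Those settings could thus not enter this list, whatever their values. Leaving out each array in turn gave 1.38 to 4.27 for *Tnfsf11*, -0.82 to 0.44 for *Tnfrsf11b*, -0.87 to 0.07 for *Spp1*, -3.69 to -1.46 for *Bmp2* and 0.94 to 5.09 for the ratio, where a lone array is assumed to vary like the others. With ratios of mean 2 to the power of −ΔCt, *Tnfsf11* was 2.22, *Bmp2* -2.22 and the ratio 1.86.

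The panel-wide count of called genes was 4 and moved to 0 with *B2m* alone (26 at an unadjusted p-value under 0.05) and to 7 with *Gapdh* or *Gusb* alone; it ran from 0 to 6 when each array was left out. *Tnfsf11* was among them without LacZ/AAV2/2 replicate 1 and with either *Gusb* or *Gapdh* alone, and the other 3 genes under none. Nothing is read from these calls, since the gene was chosen with its difference known and a single reference shifts all genes by a constant. With the replicate block the count was 5, the differences stayed at 2.83 for *Tnfsf11* and -2.57 for *Bmp2*, and none of the 4 genes was called. The number is not known to pair the arrays: deviations of the 2 groups correlated at r = 0.332 across the 77 genes, which are not independent. The filter for a Ct under 35 on every array kept 42 genes, of the 4 here only *Spp1*, and called 5. Late Ct values limit precision for the other 3 genes, each with at least 1 array above 35.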

Other observations

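LacZ/AAV2/2 replicate 2 read earlier than LacZ/AAV2/2 replicate 1 for nearly the whole panel, by 2.19 cycles at the median, yet *Tnfsf11* went the other way and came 1.67 cycles later. Only 4 of the 77 genes were later there, and the other 3 were *Osm*, oncostatin M, by 1.32 cycles, *Ltb* by 0.94 and *Cd40lg* by 0.58. *Tnfsf11*, *Ltb* and *Cd40lg* are ligands of the tumor necrosis factor superfamily, and oncostatin M is a cytokine of the interleukin 6 family. The other tested ligands of that superfamily all read earlier on LacZ/AAV2/2 replicate 2. Their changes in cycles were -3.57 for *Fasl*, -2.25 for *Tnf*, -1.71 for *Tnfsf13b* and -1.68 for *Lta*. Those of *Tnfsf13*, *Tnfsf4* and *Tnfsf10* were -1.17, -0.26 and -0.10, so the later reading was not shared by the superfamily. On the E-sel/AAV2/2 arrays the 4 later genes changed from replicate 1 to replicate 2 by -0.04 for *Tnfsf11*, -0.03 for *Osm*, 0.94 for *Ltb* and -0.20 for *Cd40lg* cycles. The reverse transcription control wells averaged Ct 23.1 in LacZ/AAV2/2 replicate 1 and Ct 24.7 in replicate 2, and the positive PCR control wells Ct 21.0 and 21.1. On E-sel arrays 1 and 2 the reverse transcription control averaged Ct 23.55 and 23.15, and the positive PCR control Ct 21.08 and 21.19. LacZ/AAV2/2 replicate 2 thus had the latest reverse transcription control of the 4 arrays. The 4 later genes were singled out after their values were seen, and no cause was tested.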
